A study of Homo sapiens with 5 samples.

Results

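Inorganic arsenic (iAs) enters, is modified in and leaves cells through a small set of proteins, and the peaks of the transcription factors Nrf2 and HIF1α were examined here at 10 of their genes: AS3MT, GSTO1, AQP3, AQP7, AQP9 and ABCC1 to ABCC5. The genes were chosen by function, but with earlier results of these data known. A peak was assigned to a gene when it overlapped the gene itself or the 50 kb on either side in the hg19 build of the human genome. Of 20163 protein-coding genes in the annotation these are 10, and of 29781 peaks in the series 52 fell in their windows. The peaks lay at 31 separate sites, against 21088 sites for the whole series.

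The peaks came from chromatin immunoprecipitation followed by sequencing (ChIP-seq) in BEAS-2B, an immortalized, non-cancerous human bronchial epithelial cell line. All cells were first held overnight without serum, and were then left untreated (control) or given 1 μM iAs for 6 h. Each of the 4 combinations of antibody (Nrf2 or HIF1α) and condition was 1 library, so there were no replicates and no difference between libraries could be tested. GEO's labels name Santa Cruz and Abcam as the makers of the antibodies, while the methods name Active Motif, and which were used is not settled here. An input library exists but was not used here. The lists give only where each peak starts and ends, so peak height and sequencing depth are unknown, no cell type marker could be checked, and a peak shows where a factor's DNA was enriched, not whether the gene was expressed.

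As background, trivalent arsenic crosses the cell membrane through aquaglyceroporins, of which AQP3, AQP7 and AQP9 are members. In the cytosol it binds glutathione and is methylated by AS3MT, while GSTO1 is a glutathione transferase that can reduce pentavalent arsenic species. ABCC transporters, also called multidrug resistance-associated proteins (MRPs), pump glutathione conjugates and other organic anions out of the cell. Nrf2 binds antioxidant response elements together with a small Maf protein and is stabilized when its inhibitor Keap1 is modified. HIF1α binds hypoxia response elements together with ARNT.

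Within 50 kb, Nrf2 peaks were found at ABCC efflux genes (4 of the 10 genes in control cells, 5 with iAs). None was found there at the methylation, reduction or uptake genes. By the same rule 20.0% and 35.0% of all protein-coding genes had a Nrf2 peak. With 100 kb, 7 of the 10 genes had one in each condition, so this split depends on the window. The share of all protein-coding genes at 100 kb is not given, and the 50 kb shares are no measure for that count. Most of the Nrf2 peaks within 50 kb lay within introns. The antioxidant response element core TGACNNNGC was held, on 1 strand or the other, by 6 of the 12 control peaks and 7 of the 18 iAs peaks. The shares over all Nrf2 peaks were 51.3% for the control and 44.2% with iAs, so the members' whole-peak shares were near those of their libraries. Member iAs peaks were wider, however, with a median of 517 bp against 333 bp for the library, which leaves more sequence to search. In the central 201 bp the core was in 5 of the 12 control and 4 of the 18 iAs member peaks. Over the libraries it was in 42.4% of control and 31.6% of iAs Nrf2 peak centres. In windows moved 5 kb away these shares were 6.71% and 6.65%. The 8 matches under the iAs peaks are given here from hg19 because they show where the core lies in the 7 iAs peaks that hold it, which are at ABCC1, ABCC2, ABCC3 and ABCC5. Each reads 5′ to 3′ on the strand of the match, with the element in capitals and its distance from the transcription start site (TSS).
ABCC2, upstream at -2.67 kb, minus strand, chr10:101539705-101539763: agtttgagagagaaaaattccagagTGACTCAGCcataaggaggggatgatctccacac
ABCC2, intron 1 at 1.53 kb, plus strand, chr10:101543901-101543959: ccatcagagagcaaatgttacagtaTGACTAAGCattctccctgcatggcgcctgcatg
ABCC1, intron 5 at 72.6 kb, minus strand, chr16:16116040-16116098: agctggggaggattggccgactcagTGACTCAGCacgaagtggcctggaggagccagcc
ABCC1, intron 13 at 119 kb, plus strand, chr16:16162797-16162855: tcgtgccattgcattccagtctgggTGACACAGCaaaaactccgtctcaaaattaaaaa
ABCC3, intron 1 at 6.02 kb, minus strand, chr17:48718237-48718295: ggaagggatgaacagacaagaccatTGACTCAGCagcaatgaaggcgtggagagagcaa
ABCC3, intron 8 at 26.6 kb, plus strand, chr17:48738782-48738840: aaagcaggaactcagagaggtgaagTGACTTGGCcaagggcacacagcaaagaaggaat
ABCC3, intron 8 at 27.1 kb, minus strand, chr17:48739271-48739329: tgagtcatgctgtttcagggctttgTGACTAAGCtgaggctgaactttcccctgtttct
ABCC5, intron 2 at 11.5 kb, minus strand, chr3:183724124-183724182: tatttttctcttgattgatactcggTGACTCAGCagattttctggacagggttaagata

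In 4 of these 8 matches, 1 each at ABCC1, ABCC2, ABCC3 and ABCC5, the element reads TGACTCAGC, which also contains the AP-1 element TGACTCA. Such a match therefore counts for both motifs. The match at 119 kb in ABCC1 was the exception among the 8 in lying under a peak that was called only with iAs; the other 7 were under peaks of both Nrf2 libraries. The 29 bases centred on each of the 8 elements occurred once in hg19, counting exact copies on both strands. The matches were not all central: their distance from the centre of the iAs peak ran from 4 bp to 652 bp, both at ABCC3.

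The AP-1 element was present in 51.5% of all Nrf2 iAs peaks and 58.4% of all Nrf2 control peaks. It is shown at 2 member sites that had no antioxidant response element, the single Nrf2 peak of ABCC4 and the ABCC3 site that carried a peak in all 4 libraries.
ABCC4, intron 1 at 33.7 kb, plus strand, chr13:95920008-95920064: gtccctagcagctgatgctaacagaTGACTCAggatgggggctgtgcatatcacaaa
ABCC3, intron 1 at 4.51 kb, minus strand, chr17:48716731-48716787: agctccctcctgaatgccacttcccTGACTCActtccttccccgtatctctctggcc

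HIF1α peaks in the windows of the same genes lay mostly at transcription starts, often those of neighbouring genes. Only 4 of 8 control and 7 of 14 iAs peaks were nearest to a member's own TSS. In control cells ABCC4 alone had one centred within 1 kb of its own TSS. None of the HIF1α peaks held TGACNNNGC (0 of 8 control and 0 of 14 iAs peaks, against 18.0% and 18.9% of all HIF1α peaks). The hypoxia response element core, searched as ACGTG or GCGTG on both strands, was in 5 of 8 control peaks (58.5% of that library) and in 11 of 14 iAs peaks (71.6%). In windows of 201 bp the core was in 47.7% and 52.4% of HIF1α peak centres and in 23.8% and 25.3% of windows moved 5 kb away, so it is also common outside peaks. One match is shown for each ABCC gene with a HIF1α peak at its start, and for ABCC4 1 from each condition since its peaks did not overlap.
ABCC1 with iAs, 314 bp after the TSS, minus strand, chr16:16043776-16043802: ggccgcgggcgACGTGagggtcccggg
ABCC3 with iAs, 288 bp after the TSS, minus strand, chr17:48712519-48712545: tccccgacaccGCGTGggacccggctc
ABCC4 control, 804 bp after the TSS, plus strand, chr13:95952890-95952916: ggtacaacgggACGTGgagttggatcg
ABCC4 with iAs, 202 bp after the TSS, minus strand, chr13:95953492-95953518: cctctgctcacGCGTGttcttctggtg
ABCC5 with iAs, 14 bp after the TSS, minus strand, chr3:183735647-183735673: catgctcgggaGCGTGgttgagcggct

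For each factor 1 more of the 10 genes had a peak with iAs than in control cells. In the Nrf2 control library 4 of the 10 genes had a peak (ABCC1, ABCC2, ABCC3 and ABCC5), and 20.0% of all protein-coding genes did by the same rule. With iAs ABCC4 was added, giving 5 of 10 against 35.0% of all genes. HIF1α control peaks were at 5 of 10 (AS3MT, ABCC1, ABCC3, ABCC4 and ABCC5) against 45.5%, and HIF1α iAs peaks at 6 of 10, with GSTO1 added, against 68.6%. Counted as peaks, the 4 libraries gave 12 and 18 for Nrf2 and 8 and 14 for HIF1α, in control and iAs cells. Over the 1.78 Mb of windows this was 0.675 and 1.01 Nrf2 peaks per 100 kb, against 0.135 and 0.328 in the windows of all protein-coding genes. The HIF1α densities were 0.450 and 0.787 per 100 kb against 0.289 and 0.668. Nrf2 peaks were thus denser in these windows than over all gene windows in both conditions, and the HIF1α densities were nearer to the general ones. This is a description that could not be tested, of genes chosen with earlier results of these data known. The counts were uneven among the 10 genes, as the plot of peaks per gene and library shows.

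**Figure D1:**
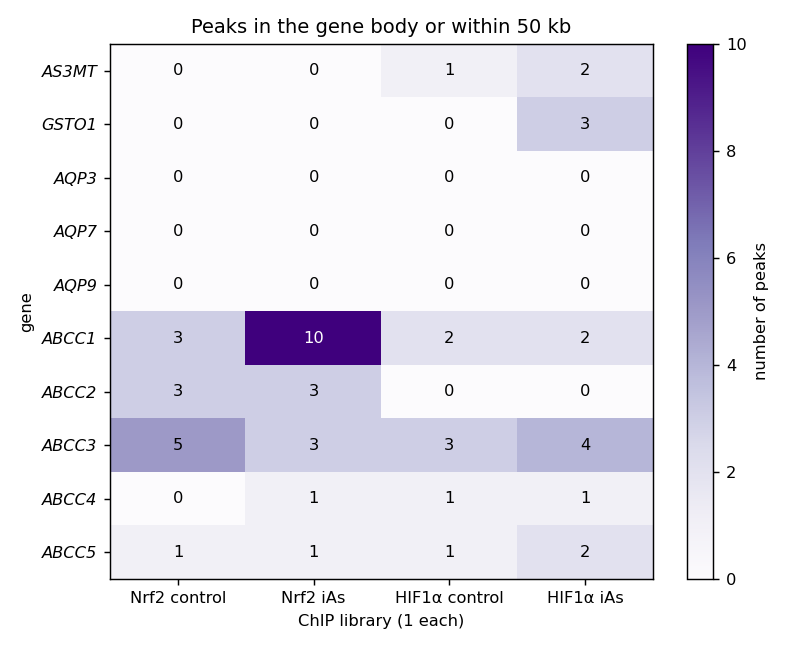
Number of peaks over the gene or up to 50 kb away (color and digits) for each of the 10 genes (rows) in each ChIP library (columns, 1 library each). The 3 aquaporin genes have 0 in all 4 libraries, and ABCC1 holds 10 of the 18 Nrf2 iAs peaks.

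AS3MT, the methyltransferase that produces methylated arsenicals, had no peak of either factor in its body (chr10:104629227-104661656, plus strand). The nearest Nrf2 peak was 328 kb from the gene in control cells and 328 kb with iAs. The HIF1α peaks in its window were 1 in control cells (392 bp wide) and 2 with iAs (367 and 770 bp), all beyond its 3′ end. These 3 peaks were centred 208 to 556 bp from the start of CNNM2, a neighbouring gene for a magnesium-transport protein, so they were nearer to that promoter than to AS3MT. The 392 bp control peak overlapped the 770 bp iAs peak.

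GSTO1, the omega-class transferase, was without a peak in 3 libraries. With iAs, HIF1α had 3 peaks in its window. The first, at chr10:106014658-106014901, was 244 bp wide, was centred 129 bp after the GSTO1 TSS and overlapped exon 1. The second was 278 bp wide and centred 104 bp from the start of GSTO2, a paralog whose gene lies 1.41 kb from GSTO1, and the last was 232 bp wide and 20.1 kb from the GSTO1 TSS. All 3 were narrow for that library, where 24.5%, 35.0% and 20.6% of peaks were narrower still. The peak at the GSTO1 start held none of the 3 motifs, while the one at the GSTO2 start held ACGTG on both strands, as overlapping matches at a single palindromic site. The nearest Nrf2 peak lay 71.0 kb from GSTO1 in control cells, near the start of ITPRIP, and 419 kb away with iAs.

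The aquaglyceroporin genes AQP3, AQP7 and AQP9, which encode channels for arsenite uptake, had no peak in any library. For AQP3 (chr9:33441154-33447594) the nearest peaks were 59.1 kb (Nrf2 control), 59.1 kb (Nrf2 iAs), 59.0 kb (HIF1α control) and 63.4 kb (HIF1α iAs) from the gene, all nearest the start of ANKRD18B. For AQP7 (chr9:33383177-33402680) the same distances were 62.0, 61.9, 92.4 and 92.6 kb, all nearest the start of NFX1. AQP9 (chr15:58430368-58478110) was the most remote, at 284, 146, 284 and 431 kb. AQP3 and AQP7 lie 38.5 kb apart, so their windows share sequence and the empty windows are not independent. AQP7 has near-identical pseudogene copies, where short reads may not map to 1 place, and a missing peak there is uncertain.

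ABCC1 encodes MRP1, which exports glutathione conjugates from many cell types, and with iAs carried more Nrf2 peaks than the other 9 genes together. In control cells Nrf2 had 3 peaks, of 230, 237 and 399 bp, at 38.9, 47.3 and 72.6 kb from the TSS. With iAs there were 10, from 181 to 848 bp wide and from 17.6 to 125 kb from the TSS, all within introns 1, 5, 13 and 14 of this 194 kb gene of 31 exons. All 3 control sites were among them, at 613, 490 and 848 bp, and the other 7 were called only with iAs. Only 20 of all protein-coding genes, or 0.0992%, had as many Nrf2 iAs peaks by this rule, and 6 (0.0298%) had as many in the body alone. Among the 1570 genes at least as long as ABCC1 the latter were 5, or 0.318%. Per 100 kb of window ABCC1 had 1.02 Nrf2 peaks in control cells and 3.40 with iAs. The 7 new peaks were narrower than the 3 shared ones, at 181 to 470 bp. That at 70.2 kb had the smallest width in the library, 181 bp. Only 1 of the 7, at 119 kb, held an antioxidant response element.

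HIF1α had 2 peaks at ABCC1 in each condition, of which 1 was shared. The shared site at 47.3 kb in intron 1 carried a peak in all 4 libraries, with HIF1α widths of 376 bp (control) and 223 bp (iAs) and Nrf2 widths of 237 and 490 bp. It held none of the 3 motifs in any library. At 125 kb in intron 14 a HIF1α peak of 420 bp was on the control list alone, and an overlapping Nrf2 peak of 470 bp was on the iAs list alone. At the gene start a HIF1α peak of 245 bp, centred 422 bp after the TSS, was called only with iAs. ABCC6, which also has near-identical copies, is separated from ABCC1 by 6.31 kb and so lies partly in its window. No peak of the ABCC1 window was outside the ABCC1 gene body.

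ABCC2 encodes MRP2, the apical transporter that passes conjugates into bile and other lumens. It had 3 Nrf2 peaks in each condition, at the same 3 sites close to its 5′ end. Upstream at -6.63 kb the width went from 390 to 1024 bp with iAs (chr10:101535249-101536272). Upstream at -2.64 kb it went from 275 to 849 bp. The third site began in intron 1 at 1.54 kb with 266 bp and extended with iAs to 1446 bp, chr10:101543779-101545224, over exon 2. Each of these sites was thus wider with iAs, by 2.63, 3.09 and 5.44 times. The iAs peak at the third site was wider than 97.9% of peaks in its library, while in control cells its counterpart was wider than 36.8%. ABCC2 was also the only ABCC member without a HIF1α peak: the nearest was 351 kb from the gene in control cells, and with iAs it was 50.1 kb away at the start of CUTC, just outside the window.

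ABCC3 encodes MRP3, a basolateral transporter of conjugated organic anions. Its Nrf2 peaks numbered 5 in control cells and 3 with iAs, yet they covered 2534 and 3914 bases. The lower number lay in a single region in introns 7 and 8, where control peaks of 233, 193 and 1023 bp were all overlapped by 1 iAs peak of 2491 bp, chr17:48737399-48739889. That peak ranked 15 by width among the 7743 Nrf2 iAs peaks and contained 2 antioxidant response elements, both also under the widest of the 3 control peaks. In intron 1 the widths of control and iAs peaks were 827 and 879 bp at 4.37 kb, and 258 and 544 bp at 6.01 kb.

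At the first of those intron 1 sites HIF1α also had a peak in both conditions, of 811 bp (control) and 343 bp (iAs). The control peak was wider than 99.5% of HIF1α control peaks and had 3 AP-1 elements and neither of the other motifs. A HIF1α peak of 696 bp over the ABCC3 TSS (chr17:48712050-48712745) was called only with iAs and overlapped exon 1. The remaining HIF1α peaks of the ABCC3 window were at the starts of ANKRD40, with 320 bp (control) and 338 bp (iAs), and of LUC7L3, with 280 and 731 bp.

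ABCC4 encodes MRP4, an exporter of cyclic nucleotides and other anions, and at 282 kb was the longest of the 10 genes. It had no Nrf2 peak in control cells, the nearest being 234 kb away, and 1 with iAs, 33.6 kb into intron 1 and 181 bp wide. This was the smallest width in the Nrf2 iAs library, so the call that added ABCC4 to the Nrf2 genes rests on a peak at the lower end of that list. For HIF1α the control peak (320 bp) was centred 758 bp after the TSS and the iAs peak (263 bp) 230 bp after it, with no overlap between them. ABCC4 was the only member with a HIF1α control peak centred within 1 kb of its TSS.

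ABCC5 encodes MRP5, a widely expressed relative of MRP4. A single Nrf2 site in intron 2, at 11.5 kb, had a width of 365 bp (control) and 1024 bp (iAs, chr3:183723620-183724643). It contained a TGACTCAGC element 18 bp from the centre of the iAs peak. HIF1α had a peak of 686 bp over the TSS with iAs only (chr3:183735185-183735870). The other HIF1α site in the window, of 313 bp (control) and 542 bp (iAs), was at the start of PARL, a gene for a mitochondrial protease. The map of peaks along the genes sets these positions beside each other.

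**Figure D2:**
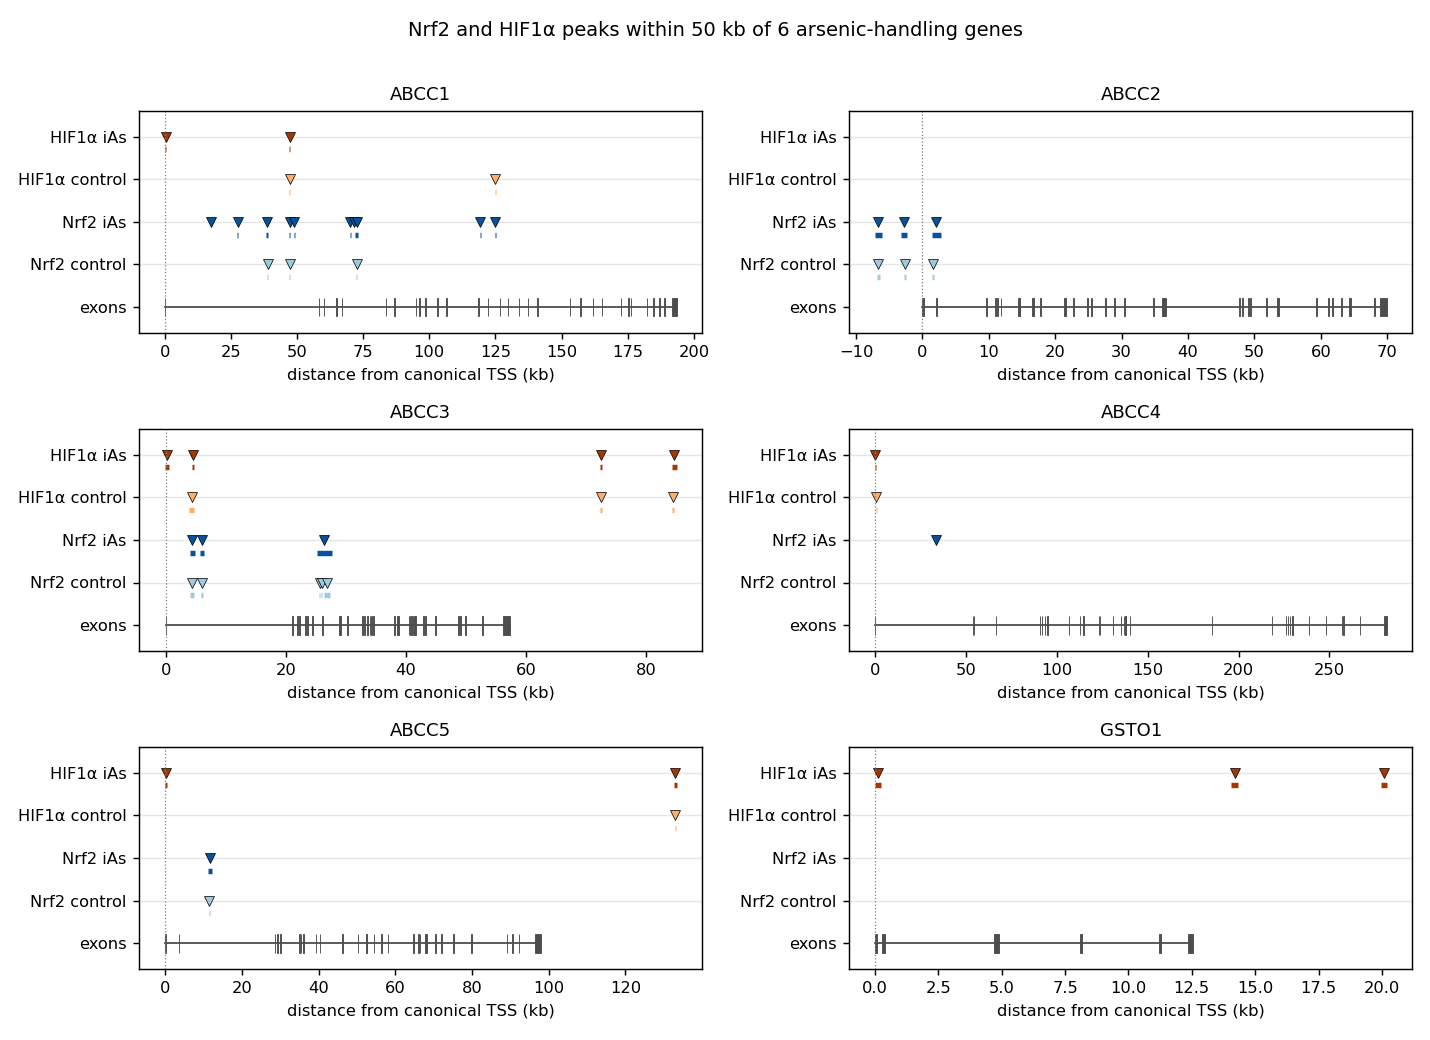
Position of peaks along 6 of the genes, as distance from the canonical TSS in kb (positive in the direction of transcription), for each of the 4 libraries; triangles mark peak centres, bars under them show peak width to scale, and black boxes are exons. Nrf2 peak centres lie in introns or, at ABCC2, also upstream and in exon 2, and HIF1α iAs peaks stand at the dotted line of the TSS at ABCC1, ABCC3, ABCC4, ABCC5 and GSTO1.

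Peaks of the 2 factors lay at different distances from the starts of these genes, and the same contrast was present over all genes and all peaks. No Nrf2 peak was centred within 1 kb of a member's TSS in either condition (0 of 10 genes in both, against 2.23% of all genes in control cells and 4.91% with iAs). HIF1α peaks were so placed at 1 of 10 genes in control cells (16.5% of all genes) and at 5 of 10 with iAs (42.1%), namely GSTO1, ABCC1, ABCC3, ABCC4 and ABCC5. Taking the nearest start of any protein-coding gene, 0 of 12 and 0 of 18 Nrf2 peaks were within 1 kb, where 12.0% and 11.9% of all Nrf2 peaks were. For HIF1α 5 of 8 control and 11 of 14 iAs peaks were within 1 kb, with 48.7% and 72.6% over the libraries. The peaks' distance from a start and their width are plotted together.

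**Figure D3:**
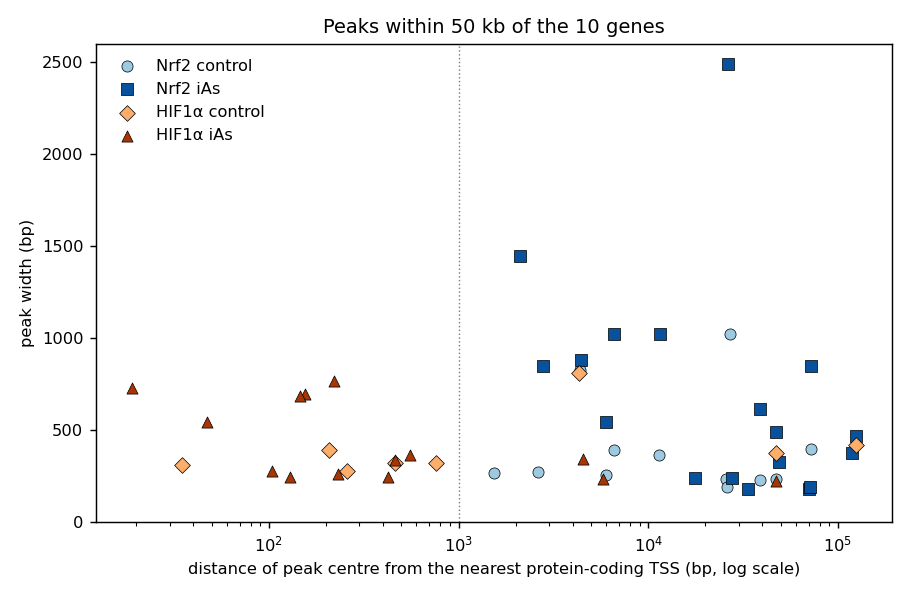
Width of each of the 52 peaks (bp, vertical axis) against the distance of its centre from the nearest protein-coding TSS (bp, log scale), by library; the dotted line marks 1 kb. All Nrf2 peaks are to the right of the line, and 16 of the 22 HIF1α peaks are to the left.

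All 12 Nrf2 control and 18 Nrf2 iAs peaks were nearer to the TSS of a member than to that of any other gene. This held for 4 of 8 HIF1α control and 7 of 14 HIF1α iAs peaks, the others being nearest CNNM2, GSTO2, ANKRD40, LUC7L3 or PARL.

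Peaks called in only 1 condition were then counted. Of the 18 Nrf2 iAs peaks 8 overlapped no Nrf2 control peak, 7 at ABCC1 and 1 at ABCC4, and the share over the library was 62.0%. Of the 14 HIF1α iAs peaks 8 overlapped no HIF1α control peak, against 75.2%. None of the 12 Nrf2 control peaks and 2 of the 8 HIF1α control peaks were without an overlapping iAs peak, where 5.37% and 46.3% were over the libraries. The 2 lost HIF1α peaks were those at 125 kb in ABCC1 and at 758 bp in ABCC4. The Nrf2 count depends on the overlap rule: with a reciprocal overlap of 50% in place of 1 bp, 17 of the 18 Nrf2 iAs peaks had no control counterpart. The library's share under that rule was not computed.

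At the sites called in both conditions the width could be compared. All 10 such Nrf2 sites were wider with iAs, by a median of 2.38 times and a range of 1.06 to 5.44 times, while over the 2939 such peaks of the library the median was 1.63 and 91.7% were wider. Of 6 such HIF1α sites 4 were wider, with a median of 1.39 times, against 1.43 and 75.9% over 3175 peaks. The 2 HIF1α sites that were narrower with iAs, at ABCC1 (0.593 times) and ABCC3 (0.423 times), were also the 2 sites where Nrf2 had a peak in both conditions. Whether the 2 features go together over the series was not tested. Width depends on read depth and on the peak caller as well as on enrichment, and depth was not available, so the part of depth in these ratios was not tested.

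**Figure D4:**
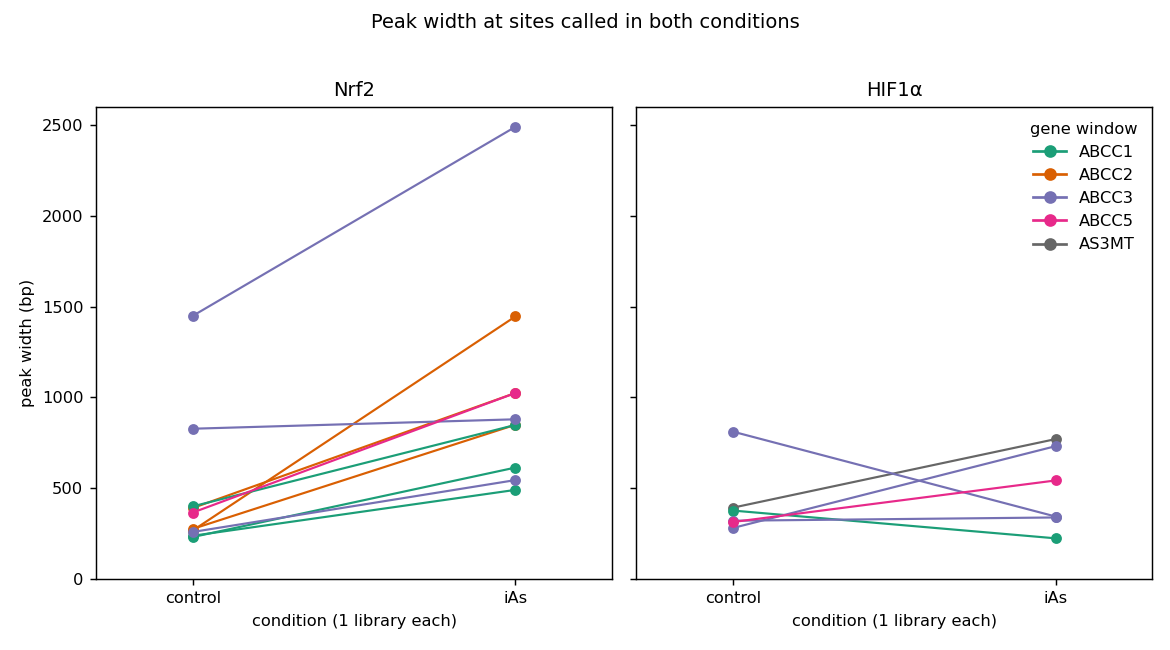
Peak width (bp) in control and iAs cells at member sites where the same factor had a peak in both conditions, for Nrf2 (left, 10 sites) and HIF1α (right, 6 sites); each line is 1 site, colored by gene window, and the 3 control peaks under the widest ABCC3 peak are summed. All Nrf2 lines slope up, and the HIF1α lines at 47.3 kb in ABCC1 and 4.31 kb in ABCC3 slope down.

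Overlap between the factors was counted next. Of the 18 Nrf2 iAs peaks 2 overlapped a HIF1α iAs peak (14.7% of all Nrf2 iAs peaks did), and 3 overlapped a HIF1α control peak (23.6%). They were the sites at 47.3 kb in ABCC1 and 4.40 kb in ABCC3, which had a peak in all 4 libraries, and, for the control overlap, the site at 125 kb in ABCC1. Counted by sites, 2 of the 31 member sites carried peaks of all 4 libraries, against 1.59% of all 21088 sites, and 1 had the pattern of the last one, Nrf2 with iAs and HIF1α in control cells only, against 2.86%. Nrf2 peaks in both conditions and no HIF1α peak were at 8 of the 31 (9.24% of all sites), and Nrf2 with iAs only at 7 (16.7%). HIF1α with iAs only was at 8 (43.6%), HIF1α in both conditions at 4 (11.5%) and HIF1α in control cells only at 1 (7.62%). These shares were not tested.

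Related genes outside the 10 were counted in the same way. Over all protein-coding genes, 20.0% had a Nrf2 peak in control cells and 35.0% with iAs. For HIF1α the shares were 45.5% and 68.6%. A share with both factors is not given, and no list was tested against these shares. Among 11 other aquaporins, 1 had a Nrf2 peak in each condition and 4 and 5 had a HIF1α peak. AQP10, an aquaglyceroporin outside the 10 genes that is named here after its values were seen, had a HIF1α peak in its window in both conditions and no Nrf2 peak. AQP11, an intracellular aquaporin, was the one with both factors, having a Nrf2 peak at 12.6 kb (263 bp) in control cells and 12.5 kb (588 bp) with iAs and a HIF1α iAs peak of 226 bp at -332 bp. Among 7 other ABCC genes 3 (CFTR, ABCC11 and ABCC12) had a Nrf2 peak in each condition, and 1 and 4 a HIF1α peak. CFTR, the chloride channel of this family, had 1 Nrf2 peak in control cells and 2 with iAs. Those nearest its TSS were 102 kb after it, of 579 bp (control) and 563 bp (iAs). Its HIF1α control peak, of 458 bp, was also 102 kb after the TSS. Its HIF1α iAs peak, of 188 bp, was instead at -156 kb, and its nearest start was that of WNT2. ABCC11, a transporter of organic anions, had a single Nrf2 peak of 273 bp (control) and 488 bp (iAs) nearest the start of ABCC12, so that peak may be counted for both genes. The nearest HIF1α iAs peak to the ABCC11 TSS, of 228 bp, was nearest the start of LONP2. Of 16 further genes with a reported role in arsenic transport or metabolism, 8 and 8 had a Nrf2 peak and 6 and 10 a HIF1α peak, and 7 had both factors with iAs: PNP, SLC2A1, SLC20A1, SLC20A2, SLC34A1, ABCB6 and GSTP1.

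Of these, GSTP1 and ABCB6 had Nrf2 peaks at the gene start, which none of the 10 members had. GSTP1, the pi-class glutathione transferase, had a Nrf2 peak centred at -3 bp from the TSS in control cells (346 bp) and at -46 bp with iAs (566 bp), and a HIF1α peak of 407 bp at -69 bp with iAs only. ABCB6, a porphyrin transporter, had Nrf2 peaks at 851 bp (1003 bp wide) and 816 bp (1714 bp wide) and HIF1α peaks at 107 bp (274 bp wide) and 239 bp (725 bp wide) after the TSS. For the glucose transporter SLC2A1 the nearest HIF1α iAs peak was 943 bp wide and 441 bp after the TSS, and the nearest Nrf2 iAs peak was 325 bp wide and at -8.40 kb. The phosphate transporter SLC20A1, whose family can carry arsenate, had a HIF1α peak of 1171 bp at 28 bp and a Nrf2 peak of 266 bp at 1.11 kb, both the nearest with iAs. SLC20A2, of the same family, had its nearest Nrf2 iAs peak (294 bp) at -1.82 kb and its nearest HIF1α iAs peak (222 bp) at -38.0 kb. For the renal phosphate transporter SLC34A1 these were 277 bp at -4.95 kb and 205 bp at 18.2 kb, the latter nearest PFN3. For the purine nucleoside phosphorylase PNP, which can reduce arsenate in vitro, they were 410 bp at -14.4 kb and 266 bp at -8.13 kb, nearest OSGEP and PIP4P1. Of 6 established Nrf2 targets, 6 had a Nrf2 peak within 50 kb in both conditions (20.0% and 35.0% of all genes did), and 5 also had a HIF1α peak in both. Of 6 established HIF1α targets, 5 in control cells and 6 with iAs had a HIF1α peak (45.5% and 68.6% of all genes), and 3 and 4 had a Nrf2 peak. Peaks of both antibodies were thus found at both lists, and the counts do little to tell the antibodies apart. At NQO1, the quinone reductase often used as a Nrf2 marker, the Nrf2 peak nearest the TSS had a width of 1787 bp (control) and 2455 bp (iAs).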

How the data were processed

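The authors fixed BEAS-2B cells, immunoprecipitated DNA with Nrf2 or HIF1α antibodies and sequenced it. The submitters' processing notes name BWA, MACS2 2.1.0 and hg19, and the methods describe down-sampling of tags and peak calls by MACS or SICER. The deposited list holds the first and last base of each peak per library, with a list of 21088 merged regions, and no height, score, p-value or read number. All 52 peaks lay inside a merged region. No replicate exists, so intervals, errors and tests could not be given.

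Positions were turned into 1-based coordinates and set against GENCODE release 44 on GRCh37, with the canonical transcript's TSS for each of 20163 protein-coding genes. A peak counted for a gene when it overlapped the body or 50 kb on either side, and peaks were shared when they overlapped by 1 bp. Distances run from the TSS to the peak centre. Motifs were searched on both strands in whole peaks and in 201 bp about the centre, and the latter also 5 kb away. Scripts used Python 3.11.15, NumPy 2.4.6 and matplotlib 3.10.9 and were tested on simulated data.

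All 10 genes are named with all their peaks, and of the related lists those with an iAs peak of both factors within 50 kb. The members and lists were chosen with earlier results of these data known. Alternatives were windows of 10 and 100 kb, the nearest TSS only, the wider 50% of peaks, a reciprocal overlap of 50%, a 1 kb gap and motif windows of 201 bp. A 2 kb distance from the TSS and the starts of all basic transcripts were added after seeing the data.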

Additional observations from a re-analysis of the deposited data

Results flagged for a closer look

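At 125 kb in intron 14 of ABCC1 the factors changed in opposite directions with iAs: a Nrf2 peak of 470 bp was on the iAs list alone, while the HIF1α peak of 420 bp was on the control list alone. The difference was not tested, since each factor and condition had 1 library.

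At ABCC3 the number of Nrf2 peaks changed by -2 with iAs (5 to 3) and that of HIF1α peaks by 1 (3 to 4). The difference was not tested. The 3 Nrf2 control peaks at 25.7, 26.0 and 26.9 kb were all overlapped by the single iAs peak of 2491 bp, and the bases covered by Nrf2 peaks went from 2534 to 3914.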

How the results depend on the processing

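No paired analysis was possible because each antibody and condition has 1 library, and for the same reason no replicate could be left out. Of 48 alternative values 33 stayed within 1.5 times the reported ones. For Nrf2, the control genes numbered 7 with 100 kb, and the control peaks numbered 5 in the wider 50% of peaks. HIF1α control genes numbered 3 with 10 kb, 8 with 100 kb and 3 with the nearest TSS only, and its control peaks 4 with 10 kb and 4 with the nearest TSS. HIF1α iAs genes numbered 3 in the wider 50%, and its iAs peaks 9 with 10 kb, 25 with 100 kb, 7 with the nearest TSS and 7 in the wider 50%. Shares of all protein-coding genes under these alternatives are not given, so the gene counts have no general value beside them. With a reciprocal overlap of 50%, 17 of the 18 Nrf2 iAs peaks had no control counterpart, since a wide iAs peak over a narrow control peak fails that rule. In the central 201 bp 4 Nrf2 iAs peaks held TGACNNNGC. With 2 kb from the TSS, chosen after seeing the data, 1 gene had a Nrf2 control peak (ABCC2). Without replicates, heights or depth, a peak missing from a list is not shown to be absent.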
